A study of Homo sapiens with 6 samples.

Results

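ZC3HAV1L and ZC3HAV1 are adjacent genes on the long arm of human chromosome 7 and relatives of one another, and they are the 2 genes described here of 17297 in the deposited count table. ZC3HAV1L was picked on these same libraries, for its higher level in LNCaP cells overexpressing Gα13, so its own rise is a description and carries no test. ZC3HAV1 was taken for its homology to ZC3HAV1L. The genes around them on chromosome 7, the partners of the ZC3HAV1 protein, other families of like proteins and the interferon system were then read in the same 6 libraries.

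ZC3HAV1 encodes ZAP, the zinc finger antiviral protein, also known as PARP13. ZAP binds CpG-rich stretches of foreign RNA through CCCH-type zinc fingers near its N-terminus and, with the ubiquitin ligase TRIM25 and the nuclease KHNYN, brings that RNA to the decay machinery. It is induced by interferon in many cell types and is also made without it. ZC3HAV1L encodes a shorter and much less studied protein that resembles the N-terminal part of ZAP.

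The cells were LNCaP, a long-established line from a human prostate cancer with luminal character. One group came from 1 line stably transduced with pBabe without an insert (pBabe-vector), and the other from 1 line that stably overexpressed wild-type GNA13 from pBabe (pBabe-Gα13), and both were kept under puromycin. GNA13 encodes Gα13, the alpha subunit of a heterotrimeric G protein. For each line 3 biological replicates were plated and grown for 48 h to 80% confluency, and total RNA was sequenced. With a single line per condition, an effect of Gα13 and a difference between the lines themselves cannot be told apart, and p-values measure the spread between cultures of these lines.

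The 6 libraries held 33002160 to 40628970 counts. GNA13 was measured at 820, 886 and 747 CPM (TMM-normalized read counts scaled to the library size, the unit of level used throughout) in pBabe-Gα13 and at 76.7, 69.4 and 65.4 CPM in pBabe-vector, where values are given here and throughout in the order std library, replicate 2 and replicate 3, the std library being the one of each line whose heading carries that tag. Its log2 fold change was 3.54 ± 0.12 (SE), with an adjusted p of 9.12e-05 by edgeR's quasi-likelihood test, and the levels of the 2 lines did not overlap. All 10 luminal prostate markers were found at 1 CPM or more, summing to 7080 to 10200 CPM in pBabe-Gα13 and 6170 to 9140 CPM in pBabe-vector. The 4 basal prostate markers summed to 4.49 to 8.26 CPM in pBabe-Gα13 and 2.4 to 2.48 CPM in pBabe-vector. Of these 2 reached a mean of 1 CPM, the highest being KRT14 at 3.21 CPM. Of 5 neuroendocrine markers only SYP was in the table, at 2.53 to 3.4 against 4.22 to 4.46 CPM. The 6 fibroblast markers summed to 18.0 to 26.4 against 12.8 to 24.2 CPM, and only 1 of them reached a mean of 1 CPM, COL1A1 at 18.9 CPM. Of 4 endothelial markers only VWF was in the table, at 14.6 to 30.5 against 6.54 to 20.6 CPM. These differences were not tested. Of 5 leukocyte markers only CD14 was in the table, at a highest sum of 0.206 CPM in any library. The T cell receptor constant genes TRBC1 and TRBC2, which also lie on chromosome 7, stood apart. TRBC1 was at 23.1, 0 and 27.5 CPM in pBabe-Gα13 and at 0.0238, 0 and 0 CPM in pBabe-vector, and TRBC2 at 32.4, 0 and 38.4 CPM against 0.0238, 0 and 0 CPM.

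In the Gencode annotation of GRCh38, ZC3HAV1L (ENSG00000146858.8) spans chromosome 7 from 139025706 to 139036042 on the minus strand, with 5 exons, 1766 exonic bases and a coding region of 900 bases. ZC3HAV1 (ENSG00000105939.14) spans 139043515 to 139132122 on the same strand, with 8466 exonic bases over its transcripts. The 2 spans lie 7.5 kb apart. No other annotated gene overlaps ZC3HAV1L, while the ribosomal protein pseudogene RPL17P28 lies within ZC3HAV1. The coding regions aligned over their first 159 bases, of which 115 were identical (72.3%), with no identical run longer than 14 bases. Of the 1736 words of 31 bases in ZC3HAV1L transcripts, 0 occurred in any ZC3HAV1 transcript. This covers identical stretches in the annotated exons of these 2 genes only. Matches with mismatches and other places in the genome were not searched, and the assignment of reads was not tested.

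The promoters of the pair are shown because these relatives lie so close together and had such different fold changes, and because CpG, the dinucleotide that ZAP binds in RNA, is also the unit of promoter CpG islands. Each sequence is the 250 bases upstream of the RefSeq start (GRCh38.p14, minus strand, read 5′ to 3′), with CpG dinucleotides in capitals, at chr7:139036043-139036292 for ZC3HAV1L and chr7:139109721-139109970 for ZC3HAV1.
ZC3HAV1L: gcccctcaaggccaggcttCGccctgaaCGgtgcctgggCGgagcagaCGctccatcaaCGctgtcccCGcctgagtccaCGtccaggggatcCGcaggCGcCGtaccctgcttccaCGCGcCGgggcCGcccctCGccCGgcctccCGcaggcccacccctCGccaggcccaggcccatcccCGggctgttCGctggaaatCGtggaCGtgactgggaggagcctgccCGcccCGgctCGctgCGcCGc
ZC3HAV1: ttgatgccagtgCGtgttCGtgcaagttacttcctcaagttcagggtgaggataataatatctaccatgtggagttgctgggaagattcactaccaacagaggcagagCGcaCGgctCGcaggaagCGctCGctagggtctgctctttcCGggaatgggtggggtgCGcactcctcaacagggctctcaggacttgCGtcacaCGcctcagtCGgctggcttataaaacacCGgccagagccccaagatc
The ZC3HAV1L promoter was 74.8% G or C and held 27 CpG, more than 82.3% of the 35116 RefSeq promoters of the same length. The ZC3HAV1 promoter was 55.6% G or C and held 13 CpG, more than 53.4% of promoters. The median promoter held 11 CpG and was 58.0% G or C. The RefSeq start of ZC3HAV1 is not its outermost start, since 1 Gencode transcript begins further upstream at 139132122.

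The promoter windows, with 50 bases after the start added to make 300, were also searched on both strands for 4 response elements. The interferon response core GAAANNGAA occurred in 8.11% of all promoters, the cyclic AMP response element TGACGTCA in 1.85%, the AP-1 element TGANTCA in 7.71% and the SRF CArG box in 1.29%. Each had 0 matches in both promoters. None of the spelled motifs contains another. This says only that these letters were not in these windows.

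ZC3HAV1L was a low gene in pBabe-vector and a moderate one in pBabe-Gα13. It had 196, 207 and 190 counts in the pBabe-Gα13 libraries and 39, 18 and 16 counts in the pBabe-vector libraries. As normalized levels these were 5.25, 6.08 and 5.52 CPM (mean 5.62 ± 0.425, SD, n = 3) and 0.930, 0.532 and 0.499 CPM (mean 0.653 ± 0.240, SD, n = 3). All 3 pBabe-Gα13 libraries lay above all 3 pBabe-vector libraries, and the lowest of the former was 5.64 times the highest of the latter. The ratio of the means was 8.6 and the fitted log2 fold change 3.08 ± 0.27 (SE). This was the 13th largest of 14059 genes with a mean of at least 1 CPM over the 6 libraries. ZC3HAV1L was picked for this rise and reached that mean only through pBabe-Gα13, so its rank is a description. In bulk RNA, expression in more of the cells and more RNA per cell cannot be told apart.

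The spread of ZC3HAV1L relative to its mean was larger in pBabe-vector, where its counts were low, while its SD was larger in pBabe-Gα13 (0.425 against 0.240 CPM). Neither difference was tested. Its coefficient of variation was 7.57% in pBabe-Gα13 and 36.7% in pBabe-vector, where the std library had the highest value. Counting error alone gave 95% exact Poisson intervals of 0.661 to 1.27 CPM for that library, 0.315 to 0.840 CPM for replicate 2 and 0.285 to 0.810 CPM for replicate 3, and these 3 intervals overlapped. The intervals of the pBabe-Gα13 libraries were 4.54 to 6.03, 5.28 to 6.97 and 4.77 to 6.37 CPM. The ratio of pBabe-Gα13 to pBabe-vector was therefore lowest in the std pair, at 5.64, and was 11.4 in the replicate 2 pair and 11.1 in the replicate 3 pair. Without the pBabe-vector std library the log2 fold change was 3.44. The pBabe-Gα13 replicate 2 library, which held no TRBC1 or TRBC2 read, had the highest ZC3HAV1L level of the 6, at 6.08 CPM. Whether the TRBC1 and TRBC2 reads bear on the level of ZC3HAV1L was not tested.

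ZC3HAV1, the gene of the antiviral protein itself, was an abundant transcript in both lines. It was measured at 137, 101 and 132 CPM in pBabe-Gα13 (mean 123 ± 19.2, SD, n = 3) and at 113, 94.6 and 115 CPM in pBabe-vector (mean 107 ± 11.0, SD, n = 3). The ranges overlapped, and replicate 2 was the lowest library of each line. The log2 fold change was 0.20 ± 0.14 (SE), which did not pass in the fit with the line as the only term (adjusted p = 0.839 by edgeR, exact two-sided permutation p = 0.3, where 0.1 is the smallest that 3 against 3 libraries allow). By that test 24 of 17297 genes were called, which is 0.139%, and 1463 had an unadjusted p under 0.05. Over the same genes limma called 5 and DESeq2 269.

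The replicates of the lines deviated together by tag and number, so the same comparison was also made with the pair as a block. Within pairs, ZC3HAV1 was 1.21 times as high in pBabe-Gα13 in the std pair, 1.07 times in replicate 2 and 1.15 times in replicate 3. It passed in this fit at a log2 fold change of 0.19 ± 0.05 (SE) and an adjusted p of 0.00966 by edgeR. The block called 3407 genes, 19.7% of the table, with 9.32% higher and 10.4% lower, so passing it was common. The call was lost without either of 2 of the pairs. Leaving out the std pair gave an adjusted p of 0.0786, leaving out the replicate 3 pair gave 0.0514, and leaving out the replicate 2 pair kept the call at 0.00403.

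Per kb of exon, the antiviral gene was the higher of the pair in every library. ZC3HAV1 stood at 14.6 ± 2.27 CPM per kb in pBabe-Gα13 and 12.7 ± 1.3 CPM per kb in pBabe-vector (SD, n = 3). ZC3HAV1L stood at 3.18 ± 0.241 CPM per kb and 0.370 ± 0.136 CPM per kb. The length used for ZC3HAV1, 8466 bases, joins the exons of all its transcripts, the longest of which has 7177 bases. That of ZC3HAV1L is 1766 bases. Transcript use was not measured, and a shorter length would raise the ZC3HAV1 level and its ratio to ZC3HAV1L. Among the 14400 genes given an exon length, ZC3HAV1L took rank 11700 from the top in pBabe-vector and rank 8298 in pBabe-Gα13, and ZC3HAV1 took ranks 3570 and 3107. In pBabe-vector the level of ZC3HAV1 per kb was 25.3, 37.1 and 48.0 times that of ZC3HAV1L. In pBabe-Gα13 it was 5.44, 3.47 and 4.98 times as high, so the gap narrowed in each pair without closing. On the log2 scale the ratio of ZC3HAV1L to ZC3HAV1 was −2.18 ± 0.34 in pBabe-Gα13 and −5.15 ± 0.47 in pBabe-vector (SD, n = 3), a difference of 2.97 that ranged from 2.22 to 3.42 over the pairs. Since ZC3HAV1L was chosen for its rise, this difference is a description.

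Of the genes around the pair, 0 were called without the block, in a fit that called 0.139% of all genes. The table held 24 other genes within 2 Mb of the span from ZC3HAV1L to ZC3HAV1, and their median log2 fold change was 0.05, against −0.02 over the 695 genes placed on chromosome 7 and 0.00 over all genes. In the fit without the block, 0 of the 24 were called and 0 had an unadjusted p under 0.05 by edgeR, and limma and DESeq2 also called 0. With the block 4 of the 24 passed (16.7%), a share near the 19.7% of all genes. These were KIAA1549, which was higher, and CREB3L2, SLC37A3 and MRPS33, which were lower.

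Within 500 kb lay 8 of these genes, with log2 fold changes from 0.02 to 0.44. All 8 were positive, against 8411 of the 17297 genes of the table, which was not tested. KIAA1549, whose start lies 54.7 kb from that of ZC3HAV1L on its other side from ZC3HAV1 and which is known as a fusion partner of BRAF in brain tumours, was measured at 32.2, 35.0 and 39.0 CPM in pBabe-Gα13 and 31.1, 30.8 and 30.9 CPM in pBabe-vector. Its lines did not overlap, by a small margin, and its log2 fold change was 0.19 ± 0.11 (SE), with an adjusted p of 0.725 without the block and 0.0432 with it. TTC26, an intraflagellar transport gene, had a log2 fold change of 0.04. UBN2, a subunit of a histone chaperone complex, had 0.11, LUC7L2, a splicing factor of the U1 snRNP, had 0.08, TRIM24, a chromatin reader, had 0.02, and HIPK2, a nuclear kinase, had 0.03. None of these 5 passed in either fit by edgeR. The other neighbours in this window were barely expressed. KLRG2 lay at 0.218 to 0.482 CPM over the 6 libraries, and ATP6V0A4, a subunit of the vacuolar proton pump, at 0.0295 to 0.0715 CPM, with no library above the floor of 3 counts (0.0715 to 0.0935 CPM).

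**Figure D1:**
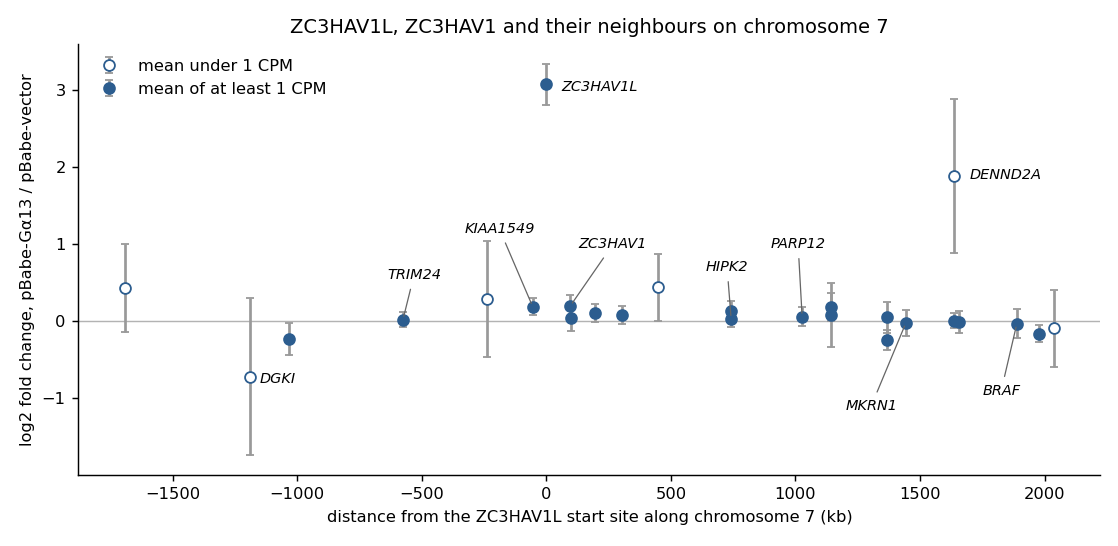
Log2 fold change of pBabe-Gα13 against pBabe-vector (± SE, edgeR without the pair block) for ZC3HAV1L, ZC3HAV1 and the 24 neighbours, against the distance of each start site from that of ZC3HAV1L in kb. Filled points have a mean of at least 1 CPM and open points less. ZC3HAV1L stands at 3.08, while the filled neighbours lie between −0.24 and 0.19.

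Further out, the low gene DENND2A had a log2 fold change of 1.89 ± 1.00 (SE) on levels of 0.161, 0.0294 and 0.145 CPM against 0.0238, 0.0591 and 0 CPM, and its adjusted p was 0.715 by edgeR. SLC37A3, a sugar phosphate carrier family member, was measured at 43.3, 45.2 and 39.0 CPM against 47.0, 59.4 and 44.3 CPM. Its log2 fold change was −0.24 ± 0.13 (SE), with an adjusted p of 0.732 without the block and 0.00582 with it. The window also held PARP12 and MKRN1, which like ZC3HAV1 encode CCCH zinc finger proteins. PARP12 had a log2 fold change of 0.06 and MKRN1 of −0.02, and neither passed in either fit.

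The genes of 5 protein partners of ZAP were expressed as RNA in both lines, and no change in them passed a test. All 5 cofactor genes had a mean of at least 1 CPM, and their log2 fold changes lay between −0.08 and 0.11. Without the block 0 of 5 passed (lowest adjusted p 0.956 by edgeR, 0 at an unadjusted p under 0.05, 0 by limma and 0 by DESeq2). With it 0 of 5 passed, against 19.7% of all genes. Without the block edgeR called 0.139% of all genes, so 0 calls lay near that share here and in each list below. TRIM25, the ubiquitin ligase that ZAP needs for its activity, was measured at 162, 168 and 160 CPM in pBabe-Gα13 and 161, 171 and 157 CPM in pBabe-vector, a log2 fold change of 0.00 ± 0.09 (SE). KHNYN, the endonuclease partner, was at 61.8, 60.9 and 47.2 CPM against 58.9, 54.0 and 44.8 CPM, and its log2 fold change was 0.11 ± 0.15 (SE). The libraries of the lines overlapped for both, and replicate 3 was the lowest for KHNYN in each line. The RNA helicases DHX30 and DDX17, which bind ZAP, had log2 fold changes of −0.01 and −0.08. MATR3, a nuclear RNA-binding protein, had 0.02, and is annotated in Gencode as 2 gene models, between which reads could have been divided.

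The RNA decay machinery that ZAP recruits was also read, through a chosen list of genes. All 21 listed genes, of the exosome, its helicases, decapping, the deadenylase PARN and exonucleases, were at 1 CPM or more. Their median log2 fold change was 0.01, with a range of −0.18 to 0.39. Without the block 0 of 21 were called, with 2 at an unadjusted p under 0.05 by edgeR and 0 calls by limma or DESeq2. With it 4 of 21 passed, near the 19.7% of all genes, of which 3 were higher and 1 lower. DCP1B, a decapping cofactor, was measured at 17.9, 19.2 and 17.2 CPM against 15.4, 13 and 13.1 CPM, so that all 3 pBabe-Gα13 libraries lay above the pBabe-vector libraries (log2 fold change 0.39 ± 0.13 SE, adjusted p = 0.416 without the block and 0.00167 with it). TTC37, the scaffold of the SKI complex that feeds RNA to the cytoplasmic exosome, was at 77.7, 89.6 and 74.9 CPM against 67.2, 70.2 and 63.3 CPM, again without overlap (log2 fold change 0.27 ± 0.10 SE, adjusted p = 0.510 and 0.00044). SKIV2L2, the helicase of the nuclear exosome, had a log2 fold change of −0.18, with an adjusted p of 0.817 without the block and 0.0111 with it. The remaining one was EXOSC2, a subunit of the exosome cap, at 0.14 and an adjusted p of 0.0487 with the block.

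ZAP belongs to the PARP family by its inactive catalytic domain. Of 16 other family members 15 were in the table, 14 of them at 1 CPM or more, with a median log2 fold change of 0.06. Without the block 0 of 15 were called and 0 had an unadjusted p under 0.05 by edgeR, and limma and DESeq2 called 0. With it 3 passed (20.0%), near the 19.7% of all genes. PARP11, a mono-ADP-ribosyltransferase, was at 18.8, 21.0 and 16.7 CPM against 17.4, 15.5 and 14.4 CPM, with 0.26 as its log2 fold change (adjusted p = 0.724 without the block and 0.0312 with it). PARP8, of the same kind, had 0.25 (adjusted p = 0.726 and 0.0320). TNKS2, tankyrase 2, was the member that was lower, at −0.20 and an adjusted p of 0.0105 with the block. PARP6 had a log2 fold change of 1.00 on levels of at most 0.268 CPM and did not pass in either fit.

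CCCH zinc fingers, the domain that binds RNA in ZAP, occur in many other proteins. Of 50 such genes 47 were in the table, with a median log2 fold change of −0.02 and, among the 45 at 1 CPM or more, a range of −0.34 to 0.60. The 0.20 of ZC3HAV1 lay within this range. Without the block 0 of 47 were called, with 1 at an unadjusted p under 0.05 by edgeR and 0 calls by limma or DESeq2. With it 8 passed (17.0%, against 19.7% of all genes), 5 higher and 3 lower. RNF113A, a spliceosome-associated RING and CCCH protein, was measured at 11.5, 11.5 and 11.3 CPM against 15.4, 14.3 and 13.8 CPM, and its lines did not overlap (log2 fold change −0.34 ± 0.12 SE, adjusted p = 0.452 without the block and 0.00688 with it). MBNL3, a muscleblind splicing regulator, was at 20.5, 15.1 and 22.2 CPM against 14.5, 11.3 and 16.7 CPM, higher within each pair although the lines overlapped (log2 fold change 0.44 ± 0.20 SE, adjusted p = 0.613 and 0.000182). ZC3H12C, of the regnase family of RNA-degrading proteins, had a log2 fold change of 0.60 ± 0.30 (SE), with an adjusted p of 0.683 without the block and 0.00966 with it.

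**Figure D2:**
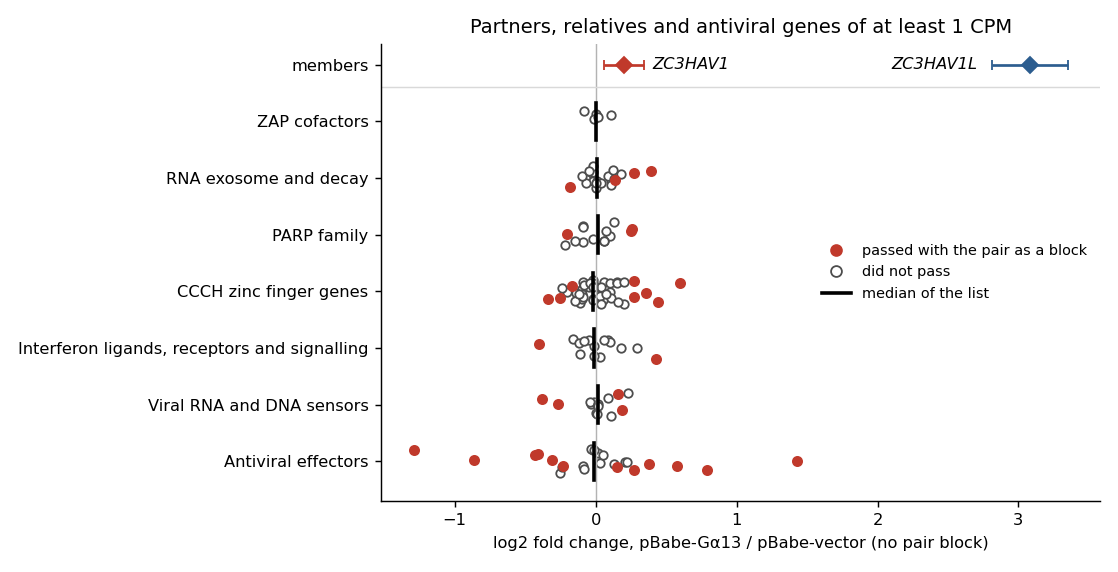
Log2 fold change of pBabe-Gα13 against pBabe-vector for ZC3HAV1 and ZC3HAV1L (diamonds, ± SE, ZC3HAV1L in blue because it was not tested) and for the genes of 7 lists with a mean of at least 1 CPM. Red points passed with the pair as a block, open points did not, and black bars are medians of the points shown. The medians of the lists lie between −0.02 and 0.02, and the antiviral effectors spread from −1.29 to 1.43.

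ZC3HAV1 is itself an interferon-induced gene in many cells, so the interferon pathway was read from its ligands to its effectors. Of 23 ligand, receptor and signalling genes 18 were in the table and 15 reached 1 CPM. The ligand genes IFNA1, IFNB1, IFNL1 and IFNG were not among the rows of the table. The median log2 fold change of the 18 was 0.01. Without the block 0 were called, with 1 at an unadjusted p under 0.05 by edgeR and 0 calls by limma or DESeq2, and with it 2 passed (11.1%, against 19.7% of all genes). STAT2, a subunit of the transcription factor that type I interferon activates, was at 61.2, 64.0 and 49.7 CPM against 47.8, 43.1 and 39.2 CPM, and no pBabe-Gα13 library was as low as any pBabe-vector library (log2 fold change 0.43 ± 0.13 SE, adjusted p = 0.387 without the block and 4.25e-06 with it). IRF7, which drives interferon gene transcription, was the other and was lower, at 9.18, 10.3 and 11.7 CPM against 11.0, 15.0 and 15.4 CPM (log2 fold change −0.40 ± 0.18 SE, adjusted p = 0.596 and 0.00271). IFNGR1, a chain of the interferon gamma receptor, had a log2 fold change of −0.16 and passed in neither fit. IRF9, the partner of STAT2 in the same factor, had −0.05 and also passed in neither fit.

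Of 19 genes that sense viral RNA and DNA, 17 were in the table, 14 at 1 CPM or more, with a median log2 fold change of 0.02. Without the block 0 were called (1 at an unadjusted p under 0.05 by edgeR, 0 by limma and 0 by DESeq2). With it 4 passed (23.5%, against 19.7% of all genes), 2 in each direction. ZNFX1, a helicase that binds viral RNA, was at 37.5, 37.3 and 40.8 CPM against 46.8, 49.3 and 54.4 CPM, and every pBabe-Gα13 library lay below every pBabe-vector library (log2 fold change −0.38 ± 0.10 SE, adjusted p = 0.321 without the block and 1.61e-05 with it). IFIH1, the RNA sensor MDA5, was lower with a log2 fold change of −0.27 (adjusted p without and with the block 0.641 and 0.0381). TBK1, the kinase downstream of several sensors, had 0.19 (adjusted p = 0.665 and 0.0109), and EIF2AK2, the RNA-activated kinase PKR, had 0.16 (adjusted p = 0.780 and 0.0423).

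The antiviral effectors, the class to which ZAP belongs, held the most calls of the 7 lists with the block, in both directions. Of 41 listed genes 39 were in the table and 25 reached 1 CPM, with a median log2 fold change of 0.06 over the 39. Without the block 0 were called, although 10 had an unadjusted p under 0.05 by edgeR, and limma called 0 and DESeq2 2. Over all 17297 genes edgeR called 24 (0.139%) and 1463 had an unadjusted p under 0.05, while limma called 5 and DESeq2 269. With it 12 of 39 passed (30.8%), 6 higher and 6 lower, against 19.7% of all genes.

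APOBEC3F, a cytidine deaminase that mutates retroviral DNA, was at 4.90, 5.91 and 3.95 CPM in pBabe-Gα13 and 2.00, 1.86 and 1.59 CPM in pBabe-vector. The lines did not overlap, and the log2 fold change was 1.43 ± 0.22 (SE), with an adjusted p of 0.0975 without the block, 3.92e-07 with it and 7.93e-06 by DESeq2. GBP2, a guanylate-binding protein, went the other way, at 2.73, 1.94 and 2.47 CPM against 3.53, 5.46 and 8.51 CPM. Its log2 fold change was −1.29 ± 0.33 (SE), with an adjusted p of 0.306 without the block, 2.7e-05 with it and 0.0242 by DESeq2. IFITM2, which blocks fusion of viruses with the cell membrane, was at 4.90, 4.38 and 3.37 CPM against 2.58, 2.78 and 1.96 CPM (log2 fold change 0.79 ± 0.22 SE, adjusted p = 0.358 without the block and 0.000662 with it).

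The other genes that passed with the block were OAS3, SLFN5, HERC5 and ADAR, which were higher, and IFITM3, IFIT3, ISG15, SAMHD1 and TRIM5, which were lower. Within the IFITM family IFITM2 and IFITM3 thus had opposite signs, the latter at 34.7, 34.2 and 30.1 CPM against 39.2, 52.4 and 42.2 CPM (log2 fold change −0.43). The interferon-induced genes MX1, at a log2 fold change of −0.02, and IFIT1, at 0.02, passed in neither fit, and MX1 was low in all libraries at 2.09 to 3.23 CPM.

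The 5 genes whose profile over the 6 libraries was nearest to that of ZC3HAV1L were found by the root mean square difference of log2 CPM, each gene being centred on its own mean, among the 14059 genes with a mean of at least 1 CPM. They were SPATA18 (0.234), SYT4 (0.303), GNA13 itself (0.322), GRIK1 (0.357) and EPHA3 (0.476), and they lie on chromosomes 4, 18, 17, 21 and 3. SPATA18, a mitochondrial quality control gene, was at 8.73, 11.5 and 9.94 CPM in pBabe-Gα13 and 1.48, 1.45 and 0.873 CPM in pBabe-vector. Like ZC3HAV1L it had its highest level in replicate 2 of pBabe-Gα13. GRIK1, a kainate receptor subunit, was at 5.94, 6.90 and 4.62 CPM against 1.62, 0.856 and 0.810 CPM, with the same order of the pBabe-vector libraries as ZC3HAV1L. ZC3HAV1 was far from this profile, at a difference of 1.46 and rank 2024. These genes share the libraries and the contrast by which ZC3HAV1L was picked, so the likeness is a description.

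**Figure D3:**
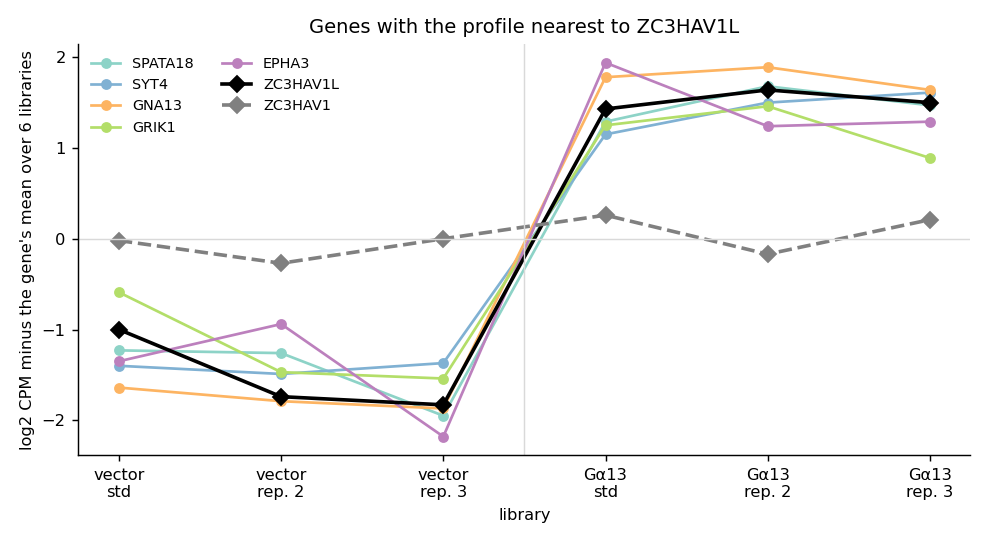
Centred log2 CPM in each of the 6 libraries for ZC3HAV1L (black), the 5 genes with the nearest profile (colours) and ZC3HAV1 (grey, dashed). The nearest genes lie between −2.18 and −0.59 in pBabe-vector and between 0.89 and 1.94 in pBabe-Gα13, and ZC3HAV1 stays between −0.27 and 0.26.

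The genes with the profile nearest to that of ZC3HAV1 were SFT2D2 (0.0375), PART1 (0.0388), UBXN2A (0.0414), NEDD1 (0.0434) and MPHOSPH9 (0.0461), on chromosomes 1, 5, 2, 12 and 12. What they shared was the low replicate 2 library of both lines. SFT2D2, a vesicle transport gene, was at 98.5, 70.9 and 89.6 CPM in pBabe-Gα13 and 78.1, 63.3 and 76.8 CPM in pBabe-vector, and the prostate transcript PART1 was at 6.26, 4.76 and 5.87 CPM against 5.15, 4.46 and 5.55 CPM. SFT2D2 had an adjusted p of 0.766 by edgeR without the block and 0.00144 with it, and NEDD1 (0.866 and 0.00807) and MPHOSPH9 (0.739 and 0.00117) likewise passed only with it. PART1 (0.929 and 0.448) and UBXN2A (0.889 and 0.0690) passed in neither fit. All 5 were chosen for their likeness to ZC3HAV1 in these same libraries.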

How the data were processed

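Read quality was assessed by the authors with FastQC 0.11.7, and reads were aligned with STAR and summed per gene with featureCounts. The authors deposited whole-number read counts for 17297 gene symbols, without normalization, although the table is named for CPM. The STAR version and the strand setting are not given in the sources used here. The methods describe TMM and limma, neither of which was applied to the values in this table. All 6 columns were used and 0 were left out. The heading of 1 pBabe-Gα13 library carries the tag std beside a number that another library of the line also has, so it is tied to its line alone. Its pBabe-vector counterpart with the tag is replicate 1.

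Counts were TMM-normalized and tested with the quasi-likelihood test in edgeR 4.0.16 (under R 4.3.3), fitted to every gene without a filter, with the line as the only term and p-values were adjusted after Benjamini and Hochberg. A call means an adjusted p under 0.05. Log2 CPM used a prior count of 2, permutation tests SciPy 1.17.1 and the coding alignment Biopython 1.88 (Python 3.11.15). DESeq2 1.42.0 and limma 3.58.1 (limma-trend), RLE scaling, a filter on low counts, leaving out each library and the pair as a block were alternatives, and the block without each pair was chosen after seeing the data. The fits by edgeR, with and without the block, and those by limma and DESeq2 were checked on simulated data. A count of 3, the floor, equals 0.0715 to 0.0935 CPM after TMM. Poisson intervals and the floor cover only counting error, because without molecular identifiers reads do not stand for independent molecules.

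Tags and numbers in the headings gave 3 candidate pairs. Over 12778 genes, each library's deviation from its group mean correlated with that of its partner at r = 0.659 (std), 0.807 (replicate 2) and 0.888 (replicate 3). Between pairs r was −0.736 to 0.125, where the points are genes and not replicates. Because deviations within a line cancel out, positive values within pairs pull those between pairs down, so the contrast is partly built in. On the values within pairs, the libraries were taken as paired in a second fit, that with the block. The main fit left the pairing out, and log2 fold changes and SEs come from it unless another fit is named. Where the adjusted p of a gene is given, block results stand beside it if the call changed.

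Gene positions and exon lengths came from Gencode 44, a later release on the same build (GRCh38) as the one the authors name, with 13706 symbols matched directly and 694 through older symbols, and promoters came from RefSeq (GRCh38.p14). Both members, the 7 gene lists and the markers were chosen with earlier results of these data known. Named by rule were the members, GNA13, the ZAP cofactors, neighbours within 500 kb, the 3 smallest p of each list, and the 5 nearest profiles. TRBC1, TRBC2, IRF9, MX1, IFIT1, DENND2A, SLC37A3, PARP12, MKRN1 and the other genes named as passing with the block were named after their values were seen.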

Additional observations from a re-analysis of the deposited data

How the results depend on the processing

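The log2 fold change of ZC3HAV1L lay between 2.92 and 3.44 when each library was left out in turn, and was 3.49 with the replicate block and without the std pair. That of ZC3HAV1 was positive under every alternative and called only with the replicate block (0.19) and with the block but without the replicate 2 pair (0.24). The block changed the counts of calls. They were 3407 over the table, 4 for RNA exosome and decay, 3 for the PARP family, 8 for CCCH genes, 2 for interferon signalling, 4 for sensors, 12 for antiviral effectors and 4 for the chromosome 7 neighbours, and it changed no call among the ZAP cofactors. With the block and without the std, replicate 2 or replicate 3 pair, 3266, 2550 and 2250 genes and 10, 9 and 11 antiviral effectors were called. Without the block, DESeq2 called 269 genes over the table and 2 antiviral effectors and limma-trend called 5 genes, against 24 by edgeR (1463 at an unadjusted p under 0.05). Leaving out 1 library gave 2 to 15 genes over the table, the lowest without the pBabe-Gα13 std library, and a median log2 fold change of the neighbours between 0.02 and 0.10. The difference of the log2 ratio of the members between the lines lay between 2.75 and 3.21. The cause of these shifts was not tested. RLE scaling called 22 genes over the table and the filter on low counts 24, and under neither was ZC3HAV1, a neighbour or a gene of a list called. Precision is limited for ZC3HAV1L by its 16 to 39 counts in pBabe-vector, and for everything by 3 cultures of 1 line per condition.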
